A study of Mus musculus with 9 samples.

Results

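The transcription factors of the myogenic programme were examined on 9 expression arrays of the mouse line BC3H1 and of a rapamycin-resistant line derived from it. The members are 9 of the 18194 genes that the array names by a single symbol: the myogenic bHLH factors Myod1, Myog, Myf5 and Myf6, the MEF2 factors Mef2a, Mef2c and Mef2d, the serum response factor Srf, and its cofactor Myocd. They were taken by symbol from the platform annotation: every probe set with a single gene symbol among these 9 names was used, 23 of the 45101 probe sets on the array. BC3H1 is a tumour line from mouse brain with muscle-like properties. RR_Rap cells (RR1) were obtained by keeping BC3H1 in 1 uM rapamycin for 6 months and were still in 1 uM rapamycin when RNA was taken. RS_Rap cells are the sensitive parent line after 24 h in 100 nM rapamycin, and RS_DMSO cells are the same parent after 24 h in the solvent DMSO. Rapamycin inhibits mTOR complex 1, a kinase complex that couples growth signals to protein synthesis. Each group had 3 arrays, and all groups were grown in medium with fetal bovine serum. There was 1 resistant line. Line, months in the drug and drug dose differ together between RR_Rap and either sensitive group, and cannot be told apart. The labels leave unsaid whether a group's 3 arrays stem from independent cultures. The p-values below therefore reflect array-to-array spread, part or all of which may be technical.

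Myogenic bHLH factors bind E-box DNA together with widely expressed E proteins and switch on muscle genes. In embryonic and regenerating muscle Myf5 and Myod1 act early, in determination of myoblasts, while Myog acts when myoblasts differentiate, and Myf6 (also called MRF4) acts both early and in mature fibres. MEF2 proteins bind A/T-rich sites next to many E-boxes and amplify the same programme, and class II histone deacetylases hold them back. SRF binds CArG boxes: with myocardin (Myocd) or the myocardin-related factors it drives actin and contractile genes, and with ternary complex factors of the Elk family it drives immediate early genes. BC3H1 has long been used as a model of incomplete muscle differentiation, since it makes muscle proteins without fusing into myotubes.

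Promoter sequences show which of these motifs stand near the starts of the members whose signals differed. RefSeq promoters (GRCm38.p6) were found for 6 of the 9 members, 8 promoters in all, and the 250 bases before the start were searched on both strands. Capitals mark an E-box (CANNTG), a CArG box or a MEF2 motif with its last base left free, a relaxation chosen after the Myog sequence had been seen. The promoters of Myog (chr1:134289754-134290003, plus strand) and Srf (chr17:46556163-46556412, minus strand) are shown because Myog gave the largest change of the members and because Srf carries matches to the CArG box, the type of motif that SRF binds.
Myog: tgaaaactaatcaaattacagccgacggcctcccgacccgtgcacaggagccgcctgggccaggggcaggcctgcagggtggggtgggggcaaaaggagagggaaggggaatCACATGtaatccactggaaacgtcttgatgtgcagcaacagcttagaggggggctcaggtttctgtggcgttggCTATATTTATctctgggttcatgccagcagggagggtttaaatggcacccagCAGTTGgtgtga
Srf: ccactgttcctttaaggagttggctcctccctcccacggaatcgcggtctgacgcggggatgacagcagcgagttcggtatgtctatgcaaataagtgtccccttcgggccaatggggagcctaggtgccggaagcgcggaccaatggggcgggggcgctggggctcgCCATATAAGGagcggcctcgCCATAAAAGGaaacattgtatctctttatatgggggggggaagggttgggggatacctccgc
The Myog promoter held 2 E-boxes, CACATG 138 to 133 bases and CAGTTG 12 to 7 bases before the start, and the MEF2 motif CTATATTTAT 64 to 55 bases before it. The Srf promoter held 2 CArG boxes, CCATATAAGG 82 to 73 bases and CCATAAAAGG 62 to 53 bases before the start. Among all 32851 promoters in the table, 66.2% held an E-box, 1.47% a CArG box and 7.03% the relaxed MEF2 motif, and 2.92% the strict MEF2 consensus, which no member promoter matched. None of these letters occurred in the windows of Myf5, Mef2a or Mef2d. Of the 3 Mef2c promoters, 2 held an E-box and 1 of these also the relaxed MEF2 motif. A match describes letters in a window and does not show binding.

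Signals are linear intensities as the authors scaled them, and tests ran on log2(signal + 16) over all 27022 probe sets whose mean exceeded a filter limit, a signal of about 22.2. The third RS_DMSO array stood apart: its median signal was 66.2, against 33.5 to 44.3 on the other 8 arrays, and 17.4% of its probe sets were below 16, against 29.3% to 34.8%. The control probe sets at the 3-prime end of Actb exceeded those at the 5-prime end, a gap that widens as RNA degrades, by a log2 value of 0.33 ± 0.02 in RR_Rap, 0.19 ± 0.04 in RS_Rap and 0.17 ± 0.008 in RS_DMSO cells (SD, n = 3 each). Results that changed without the third RS_DMSO array are given below. How far the Actb difference enters the results was not tested. Of the 23 member probe sets, 12 lay above the filter and were tested, and 11 lay below it. The nearest member inside the limit was Myog, at an average signal of 27.5 (mean of the log2 values), and the nearest outside was the Mef2a probe set 1442623_at, at 20.4.

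Of the 4 myogenic bHLH genes, Myog alone gave a call, and its signal was above the filter limit on the 3 RR_Rap arrays and on 1 of the 6 sensitive arrays. Myog, which drives the step from myoblast to differentiated muscle cell, had signals of 88.4, 102 and 107 in RR_Rap cells, against 17.4, 5.90 and 30.2 in RS_Rap cells and 1.85, 6.13 and 11.5 in RS_DMSO cells. All RR_Rap arrays lay above all sensitive arrays, while the RS_Rap and RS_DMSO values overlapped. The log2 change was 2.37 ± 0.39 for RR_Rap minus RS_DMSO (SE, adjusted p = 8.56e-05) and 1.83 ± 0.39 for RR_Rap minus RS_Rap (adjusted p = 0.000771). For RS_Rap minus RS_DMSO it was 0.55 ± 0.39 (adjusted p = 0.342), which did not pass. Myog passed the filter only through its level in RR_Rap cells, so it had to differ and its p-values lend no support. The size of its change depends on the pseudocount, because the sensitive signals lie near the floor: against RS_DMSO it ran from 1.21 to 3.40 over the 19 alternatives that tested it, with adjusted p between 2.94e-05 and 0.00145. With the filter at the 60th percentile Myog was not tested. Total RNA of a culture does not separate a larger share of cells with the transcript from more transcript per cell, here or below.

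Myf5 was well above the limit in every group and its test gave no call. Signals were 491, 508 and 587 in RR_Rap cells, 703, 498 and 560 in RS_Rap cells and 741, 806 and 414 in RS_DMSO cells. The third RS_DMSO array was the lowest of all 9, and the other RS_DMSO arrays lay above all rapamycin arrays. The log2 change was -0.25 ± 0.18 for RR_Rap minus RS_DMSO (adjusted p = 0.307), -0.14 ± 0.18 for RR_Rap minus RS_Rap (adjusted p = 0.594) and -0.11 ± 0.18 for RS_Rap minus RS_DMSO (adjusted p = 0.717). Without that array Myf5 was called lower in RR_Rap, at -0.54 (adjusted p = 0.00244), and in RS_Rap, at -0.40 (adjusted p = 0.025), both against RS_DMSO. The Myf5 result thus depends on 1 array.

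Myod1 and Myf6 stayed near the floor. For Myod1, the factor that can convert fibroblasts to muscle, the probe set 1418420_at read 38.4, 8.33 and 9.61 in RR_Rap cells, 7.38, 41.2 and 22.7 in RS_Rap cells, and 20.0, 22.3 and 26.4 in RS_DMSO cells. The other Myod1 probe set, 1447675_x_at, whose suffix marks probes that can match unrelated transcripts, ran from 1.06 to 24.5 over the 9 arrays. Myf6 read 2.17, 23.9 and 12.9 in RR_Rap cells, 7.69, 36.0 and 18.4 in RS_Rap cells, and 67.3, 20.2 and 19.8 in RS_DMSO cells. The 3 groups overlapped on all of these probe sets except 1447675_x_at, where RR_Rap lay below both sensitive groups at signals of 2.24 and less. Detection calls were not used here, so these signals are given as below the filter, not as absence.

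**Figure D1:**
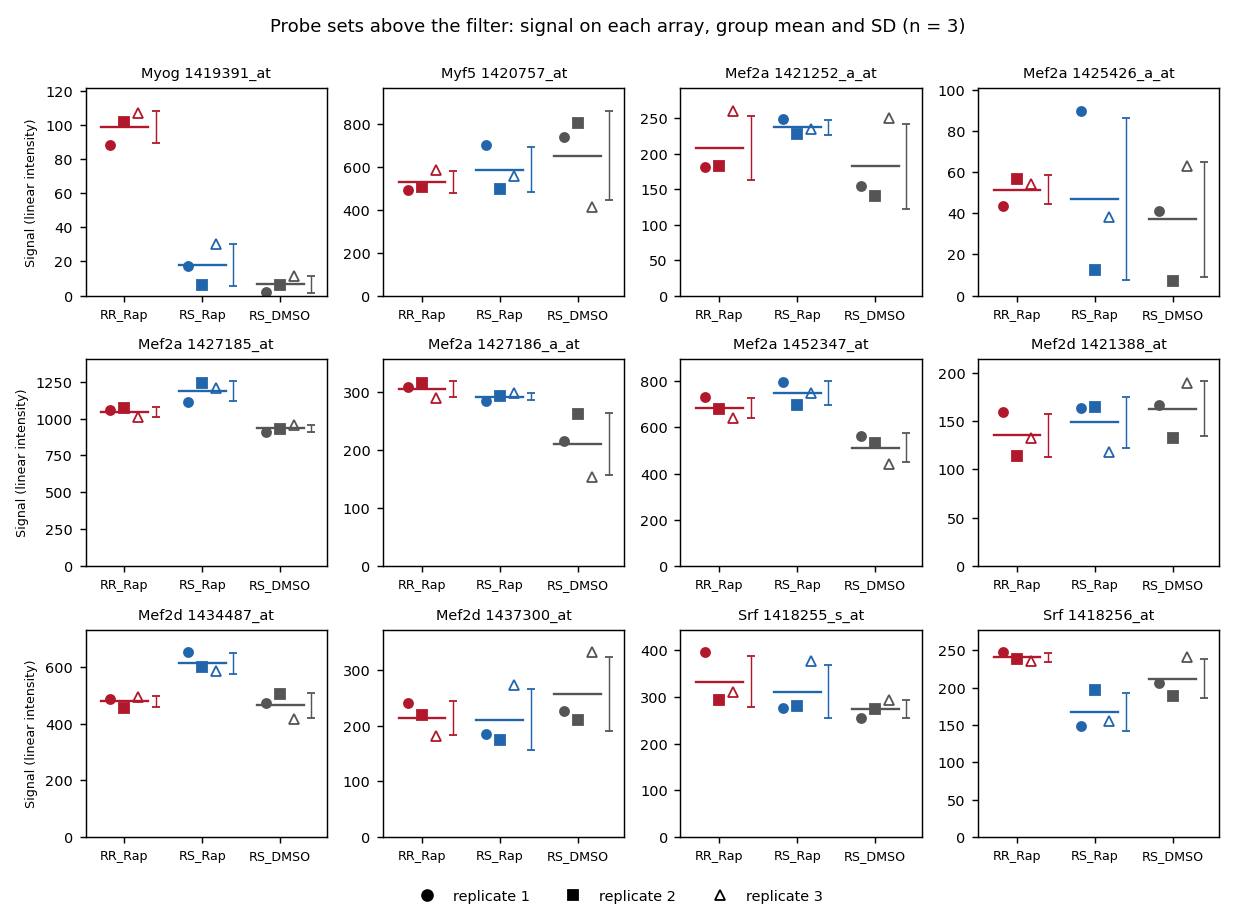
Signal of the 12 tested probe sets (linear intensity, vertical axes from 0) in RR_Rap, RS_Rap and RS_DMSO cells. Each symbol is 1 array, horizontal bars are means and the brackets SD (n = 3). The 3 RR_Rap arrays of Myog, 88.4 to 107, sit above all 6 sensitive arrays, and the third RS_DMSO array (open triangle) is the lowest for Myf5 and the highest for Mef2d 1437300_at.

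Mef2a was called higher than in RS_DMSO cells on 3 probe sets in RS_Rap cells and on 2 of these in RR_Rap cells. MEF2A is a MEF2 factor found in most tissues. On 1452347_at signals were 728, 679 and 640 in RR_Rap cells, 797, 695 and 748 in RS_Rap cells, and 563, 532 and 441 in RS_DMSO cells. Every array of either rapamycin group was above every RS_DMSO array, and the rapamycin groups overlapped with each other. The log2 change was 0.41 ± 0.10 for RR_Rap minus RS_DMSO (adjusted p = 0.00317) and 0.54 ± 0.10 for RS_Rap minus RS_DMSO (adjusted p = 0.000618), and both calls held under every alternative that tested this probe set.

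The brightest Mef2a probe set, 1427185_at, had signals of 1060, 1073 and 1008 in RR_Rap cells, 1112, 1238 and 1209 in RS_Rap cells, and 911, 931 and 957 in RS_DMSO cells. Its 3 groups did not overlap, with RS_Rap highest and RS_DMSO lowest. It was called in RS_Rap minus RS_DMSO (0.34 ± 0.08, adjusted p = 0.00254) and not in RR_Rap minus RS_DMSO (0.16 ± 0.08, adjusted p = 0.0955) or RR_Rap minus RS_Rap (-0.18 ± 0.08, adjusted p = 0.0672). With arrays centred on their 75th percentile the change of RR_Rap minus RS_DMSO passed, at 0.26 (adjusted p = 0.0171). The change of RR_Rap minus RS_Rap passed under 4 of 20 alternatives, among them without the third RS_DMSO array (adjusted p = 0.0462) and without the first RS_Rap array (-0.22, adjusted p = 0.0318).

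The probe set 1427186_a_at, whose suffix marks probes shared by several transcripts of 1 gene, read 309, 316 and 290 in RR_Rap cells, 285, 293 and 299 in RS_Rap cells, and 216, 262 and 154 in RS_DMSO cells. The RS_DMSO arrays were all below the others and the widest spread. It was called higher in RR_Rap than in RS_DMSO (0.53 ± 0.15, adjusted p = 0.00922) and in RS_Rap than in RS_DMSO (0.47 ± 0.15, adjusted p = 0.0281). The call of RS_Rap was lost under 8 of 18 alternatives, among them leaving out the third RS_DMSO array (0.28, adjusted p = 0.101) or any 1 of the 3 RS_Rap arrays (adjusted p = 0.0592, 0.0698 and 0.0783).

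The other tested Mef2a probe sets gave no call. On 1421252_a_at the means were 208 ± 45.5 in RR_Rap, 238 ± 10.8 in RS_Rap and 182 ± 59.7 in RS_DMSO cells, with 251 on the third RS_DMSO array. Without that array its changes against RS_DMSO passed, at 0.43 in RR_Rap (adjusted p = 0.0406) and 0.63 in RS_Rap (adjusted p = 0.00788). The dim probe set 1425426_a_at ran from 7.01 to 90.1 and overlapped in all groups. All 5 tested Mef2a probe sets had positive log2 changes against RS_DMSO in both rapamycin groups, and with their values averaged, 1442623_at included, Mef2a changed by 0.31 in RS_Rap minus RS_DMSO (adjusted p = 0.0785).

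Mef2d, a MEF2 factor with a muscle-specific splice form, was higher in RS_Rap cells on its brightest probe set only. On 1434487_at signals were 487, 456 and 493 in RR_Rap cells, 653, 599 and 585 in RS_Rap cells, and 473, 504 and 417 in RS_DMSO cells. All RS_Rap arrays lay above the other 6, and RR_Rap and RS_DMSO overlapped. The log2 change was 0.39 ± 0.10 for RS_Rap minus RS_DMSO (adjusted p = 0.00554) and -0.34 ± 0.10 for RR_Rap minus RS_Rap (adjusted p = 0.00677). For RR_Rap minus RS_DMSO it was 0.05 ± 0.10 (adjusted p = 0.743). The call against RS_Rap was lost with arrays centred on their 75th percentile (-0.21, adjusted p = 0.119).

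The other Mef2d probe sets did not follow. The means on 1421388_at were 135 ± 22.4 in RR_Rap, 149 ± 26.4 in RS_Rap and 163 ± 28.4 in RS_DMSO cells, and those on 1437300_at were 214 ± 30.4, 211 ± 54.3 and 257 ± 66.4 in the same order of groups. The change of RS_Rap minus RS_DMSO was -0.12 ± 0.19 on 1421388_at (adjusted p = 0.71) and -0.26 ± 0.19 on 1437300_at (adjusted p = 0.349). With the 3 probe sets averaged it was 0.004 (adjusted p = 0.985), so the Mef2d call belongs to 1 probe set.

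All 5 Mef2c probe sets were below the filter. MEF2C is a MEF2 factor of differentiating skeletal muscle, heart and brain. Their signals were 0.807 to 39.8 in RR_Rap cells, 1.44 to 21.7 in RS_Rap cells and 1.88 to 51.2 in RS_DMSO cells. On 1451507_at the third RS_DMSO array read 51.2 and the other RS_DMSO arrays 1.88 and 3.74, and on 1421028_a_at it read 48.9 against 20.4 and 3.73. Mef2b, the remaining family member and not one of the 9 genes, averaged 60.7 ± 5.62 in RR_Rap, 21.6 ± 15.6 in RS_Rap and 13.7 ± 18.5 in RS_DMSO cells. It was called higher in RR_Rap than in RS_DMSO (1.53 ± 0.46, adjusted p = 0.0121), a call lost without the first RR_Rap array (1.47, adjusted p = 0.0521). Its means in both sensitive groups were below the limit, so it too entered the test through RR_Rap.

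Srf gave 1 call. On 1418256_at signals were 248, 239 and 235 in RR_Rap cells, 149, 196 and 156 in RS_Rap cells, and 206, 189 and 241 in RS_DMSO cells. RR_Rap lay above RS_Rap on every array and overlapped with RS_DMSO. The log2 change of RR_Rap minus RS_Rap was 0.50 ± 0.15 (adjusted p = 0.01), and the call held under every alternative that tested this probe set. RS_Rap minus RS_DMSO was -0.32 ± 0.15 (adjusted p = 0.124) and RR_Rap minus RS_DMSO 0.18 ± 0.15 (adjusted p = 0.372). The other Srf probe set, 1418255_s_at, whose suffix marks probes that can match several genes, averaged 333 ± 55.5 in RR_Rap, 312 ± 57.2 in RS_Rap and 274 ± 18.9 in RS_DMSO cells, and its change of RR_Rap minus RS_Rap was 0.09 ± 0.14 (adjusted p = 0.639).

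Myocd, the cofactor through which SRF drives smooth muscle and heart genes, was below the filter on both probe sets. The probe set 1425808_a_at read 6.10, 5.86 and 5.26 in RR_Rap cells, 1.69, 3.02 and 3.55 in RS_Rap cells, and 5.62, 3.97 and 15.4 in RS_DMSO cells. The other, 1425978_at, ran from 2.21 to 22.0. On 1425808_a_at the RR_Rap arrays lay above the RS_Rap arrays, all far under the limit. Myocd has no test in any comparison.

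**Figure D2:**
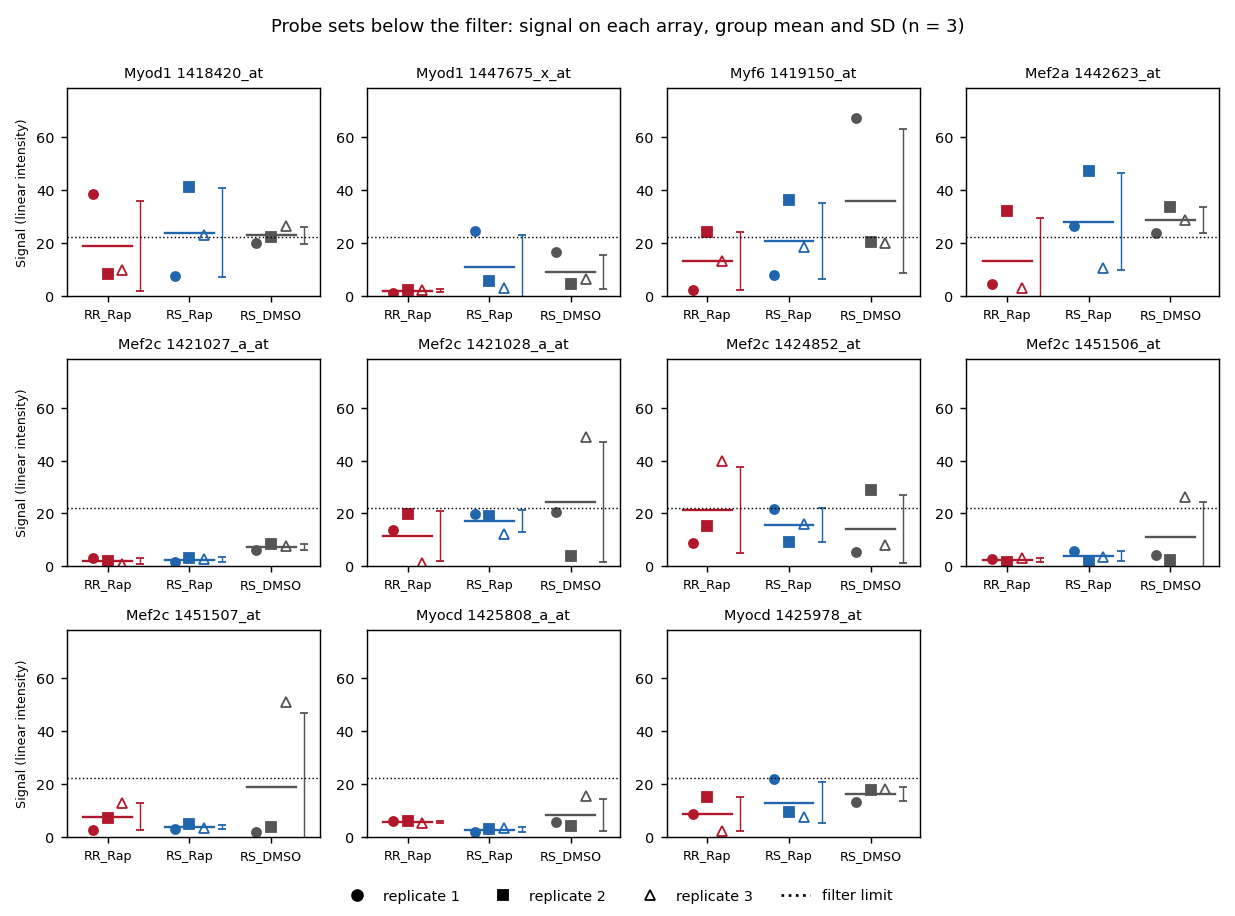
Signal of the 11 member probe sets below the filter (linear intensity, vertical axes from 0) in RR_Rap, RS_Rap and RS_DMSO cells, with the filter limit of 22.2 as a dotted line. Each symbol is 1 array, horizontal bars are means and the brackets SD (n = 3), drawn down to 0 at most. The highest value is 67.3, Myf6 on the first RS_DMSO array, and 20 of the 99 values exceed the limit.

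The calls among the 12 tested member probe sets were set beside those over all probe sets. In RS_Rap minus RS_DMSO 4 of 12 were called, all higher. Of all 27022 tested probe sets 28.0% were called in either direction, 4336 higher and 3238 (12.0%) lower. In RR_Rap minus RS_DMSO 3 of 12 were called, all higher, against 43.7% of all, 21.7% higher and 22.0% lower. In RR_Rap minus RS_Rap 2 were called higher and 1 lower, against 47.7% of all, 21.9% higher and 25.8% lower. Myog is 1 of the higher calls in both RR_Rap comparisons. It entered the test only through RR_Rap, where it was high, and had to differ. The median log2 change of the 12 was 0.28, 0.19 and -0.04 in these comparisons, and that of all tested probe sets 0.04, -0.05 and -0.08. Members of 1 gene are not independent, since 5 of the 12 are Mef2a probe sets. Without the third RS_DMSO array 5 were called in RR_Rap minus RS_DMSO, 4 higher and 1 lower.

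**Figure D3:**
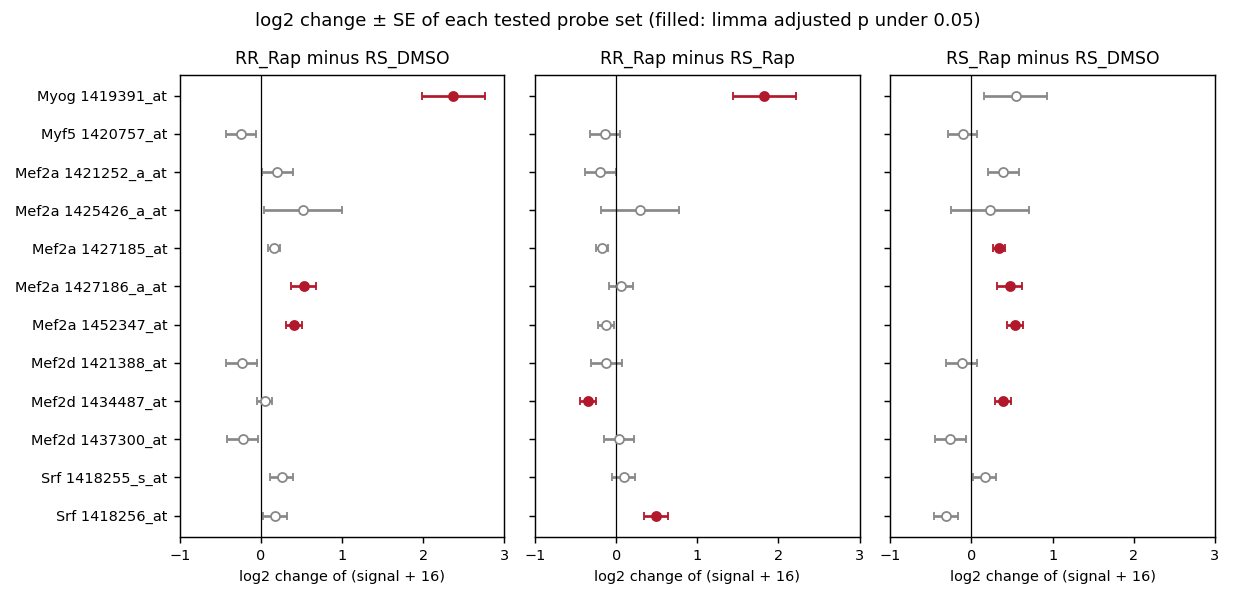
log2 change of (signal + 16) with its SE for the 12 tested probe sets in RR_Rap minus RS_DMSO, RR_Rap minus RS_Rap and RS_Rap minus RS_DMSO, filled where the limma adjusted p was under 0.05. Myog, which entered the test only through RR_Rap, lies at 2.37 and 1.83 in the RR_Rap panels. The other filled points lie between -0.34 and 0.54.

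The genes with the profiles most like the members were found by the root mean square difference of log2 values, each gene centred on its own mean over the 9 arrays, among 11973 named genes. For Myog these were Wfdc1 (0.24), the secreted chaperone clusterin, Clu (0.29), and Gxylt2 (0.30), against a median of 1.14 over all genes. Wfdc1 had mean signals of 162 in RR_Rap, 31.6 in RS_Rap and 20.2 in RS_DMSO cells. For the brightest Mef2a probe set they were Maf1, a repressor of RNA polymerase III (0.05), Luzp1 (0.05) and Snn (0.06), against a median of 0.41. For the brightest Mef2d probe set they were the membrane protein gene Ifitm2 (0.04), the lipid kinase gene Pik3c2a (0.05) and the RNA helicase gene Ddx5 (0.06), against a median of 0.43. Without the third RS_DMSO array 2 of the 3 genes were shared for Myog, where the troponin gene Tnnt3 came first, 0 for Mef2a and 2 for Mef2d. With a pseudocount of 64 no neighbour of Myog was shared and all 3 were for Mef2a and Mef2d.

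Genes that act with or against the bHLH factors were called in both directions in RR_Rap cells. Of 16 listed partners and inhibitors 14 were tested. In RR_Rap minus RS_DMSO 3 were higher and 6 lower (median -0.66), against 21.7% and 22.0% of all tested probe sets. In RR_Rap minus RS_Rap 2 were higher and 6 lower (median -0.29), against 21.9% and 25.8%. In RS_Rap minus RS_DMSO 1 was higher and 3 lower (median -0.16), against 4336 and 3238 of all 27022. The list holds both partners and inhibitors, so its counts and medians mix them. The tested genes without a call in any comparison were Id4, Twist2, Heyl and Bhlhe41. Id proteins sequester E proteins and so keep bHLH factors off DNA. Id2 averaged 439 ± 22.3 in RR_Rap, 550 ± 39.5 in RS_Rap and 996 ± 120 in RS_DMSO cells, a change against RS_DMSO of -1.15 ± 0.10 in RR_Rap (adjusted p = 6.53e-08) and -0.83 ± 0.10 in RS_Rap (adjusted p = 6.91e-06). Msc, a bHLH repressor of MyoD activity, averaged 6.38 ± 4.98 in RR_Rap, 68.9 ± 32.0 in RS_Rap and 80.6 ± 11.4 in RS_DMSO cells (RR_Rap minus RS_DMSO -2.13 ± 0.35, adjusted p = 8.90e-05). The repressors Hes1 (-1.73 ± 0.18) and Bhlhe40 (-1.11 ± 0.14) were also lower in RR_Rap than in RS_DMSO. Tcf3, Tcf4, Tcf12, Id1 and Id3 were chosen after their values were seen. The E-protein genes Tcf4 (0.33 ± 0.08) and Tcf12 (0.32 ± 0.08) were higher in RR_Rap than in RS_DMSO. Against RS_Rap, Tcf12 was higher (0.29 ± 0.08) and Tcf4 lower (-0.44 ± 0.08). Tcf3, which also encodes E proteins that pair with bHLH factors, was higher in RR_Rap than in RS_DMSO (0.97 ± 0.12, adjusted p = 2.87e-06). Id1 (-0.85 ± 0.09) and Id3 (-0.92 ± 0.10) were lower there. Id1 was also lower in RS_Rap than in RS_DMSO (-0.75 ± 0.09), while Id3 changed by 0.06 ± 0.10 (adjusted p = 0.734) in that comparison.

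Upstream of the bHLH genes stand Pax, Eya and Tbx factors. Of 12 listed, 10 had a probe set and 6 were tested. In RR_Rap minus RS_DMSO 3 were higher and 1 lower, against 21.7% and 22.0% of all tested probe sets. In RR_Rap minus RS_Rap 3 were higher, against 21.9% of all higher and 47.7% called in either direction. That count fell to 1 without the second or the third RR_Rap array. In RS_Rap minus RS_DMSO 1 was lower, against 12.0% of all. Eya1, a transcriptional coactivator of muscle precursors, averaged 715 ± 23.6 in RR_Rap, 207 ± 27.4 in RS_Rap and 310 ± 46.5 in RS_DMSO cells (RR_Rap minus RS_DMSO 1.17 ± 0.13, adjusted p = 6.95e-07). Tbx1 (0.97 ± 0.23, adjusted p = 0.00246) and Eya4 (0.50 ± 0.11, adjusted p = 0.0014) were higher and Pax3 (-0.59 ± 0.23, adjusted p = 0.0451) lower in the same comparison. With the mean of their probe sets Eya4 changed by 0.13 (adjusted p = 0.583) and Pax3 by -0.39 (adjusted p = 0.0797). The Pax3 call was lost under 12 of 20 alternatives, among them no filter, quantile normalization and the replicate block.

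MEF2 and SRF cofactors were called in both directions between RR_Rap and RS_Rap cells, and only higher in RS_Rap minus RS_DMSO. Of 14 genes in the MEF2 list, Mef2b included, 12 were tested: 7 were higher and 2 lower in RR_Rap minus RS_DMSO, 2 higher and 4 lower in RR_Rap minus RS_Rap, and 5 higher in RS_Rap minus RS_DMSO. The arginine methyltransferase gene Carm1 was higher in RR_Rap than in RS_DMSO (1.20 ± 0.10), and the acetyltransferase gene Kat2b lower (-1.38 ± 0.07). Hdac7, a class II deacetylase, averaged 397 ± 38.5 in RR_Rap, 824 ± 14.4 in RS_Rap and 574 ± 57.0 in RS_DMSO cells, and was called in all 3 comparisons, lower in RR_Rap and higher in RS_Rap against RS_DMSO. Of the 10 SRF cofactors, all tested, 3 were lower in RR_Rap minus RS_DMSO, 1 was higher and 5 lower in RR_Rap minus RS_Rap, and 3 were higher in RS_Rap minus RS_DMSO. Over all tested probe sets 43.7%, 47.7% and 28.0% were called in these comparisons, and the counts of SRF cofactors are not set apart from these shares. Mrtfa, a myocardin-related factor, averaged 312 ± 32.4 in RR_Rap, 528 ± 20.6 in RS_Rap and 344 ± 25.6 in RS_DMSO cells (RS_Rap minus RS_DMSO 0.60 ± 0.11, adjusted p = 0.000408; RR_Rap minus RS_Rap -0.74 ± 0.11, adjusted p = 1.69e-05). The ternary complex factor Elk3 (-1.37 ± 0.09) and the LIM protein gene Fhl2 (-1.58 ± 0.12) were lower in RR_Rap than in RS_Rap, as was Elk1 (-0.73 ± 0.26, adjusted p = 0.0299), whose call was lost under 8 of 19 alternatives, with no filter (adjusted p = 0.0863) and with quantile normalization (adjusted p = 0.137) among them.

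Genes of differentiated skeletal muscle, which Myog, Myod1 and MEF2 factors are known to drive, were called in both directions in RR_Rap cells, with a balance that changed with the filter. Of 30 listed genes 19 were tested, with 7 higher and 8 lower in RR_Rap minus RS_DMSO and the same counts in RR_Rap minus RS_Rap. In RS_Rap minus RS_DMSO 2 were higher and 1 lower. Over all tested probe sets 43.7%, 47.7% and 28.0% were called in these comparisons. Higher was Cav3, the muscle caveolin, at 114 ± 7.73 in RR_Rap, 10.7 ± 7.32 in RS_Rap and 12.2 ± 9.59 in RS_DMSO cells (RR_Rap minus RS_DMSO 2.26 ± 0.39, adjusted p = 0.000135), along with the troponin genes Tnnt1 and Tnnc2. Mean signals of Cav3, Tnnc2 and the troponin gene Tnni2 were below the limit of 22.2 in both sensitive groups, so these genes entered the test only through RR_Rap, where they were high, and had to differ. Of the other higher genes, Tnnt1 (28.6 ± 19.2 in RS_Rap, 25.4 ± 23.2 in RS_DMSO), Ckm (18.1 ± 11.9, 26.5 ± 9.30) and Tnnt3 (22.7 ± 14.4, 36.7 ± 52.5) lay near the limit in the sensitive groups. Their entry into the test leaned on RR_Rap too, so their calls lend little support. Ckm and Tnnt3 were chosen after their values were seen. With the filter at the 60th percentile 9 genes of the list were tested, with 2 higher and 6 lower in RR_Rap minus RS_DMSO and 2 higher and 7 lower in RR_Rap minus RS_Rap. With no filter the counts were 7 and 7, and 7 and 8. Lower was the acetylcholine receptor gene Chrna1, at 15.1 ± 13.6 in RR_Rap, 467 ± 44.7 in RS_Rap and 529 ± 55.4 in RS_DMSO cells. Skeletal actin, Acta1, chosen after its values were seen, averaged 71.1 ± 13.1 in RR_Rap, 145 ± 25.7 in RS_Rap and 317 ± 20.9 in RS_DMSO cells, lower in both rapamycin groups than in RS_DMSO (-1.95 ± 0.18 and -1.06 ± 0.18). The myosin heavy chain genes Myh1, Myh3 and Myh8 and the fusion gene Mymk were below the filter.

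Most contractile SRF targets were lower in RR_Rap cells, with Srf itself not called lower in RR_Rap on either probe set. Of 16 contractile and cytoskeletal targets 15 were tested, and 12 were lower in RR_Rap minus RS_DMSO, 14 lower in RR_Rap minus RS_Rap, and 6 higher in RS_Rap minus RS_DMSO. The 4 with the largest changes were Actg2, Cnn1, Tagln and Myl9. Myl9, a myosin light chain of smooth muscle, averaged 665 ± 74.4 in RR_Rap, 5957 ± 102 in RS_Rap and 3436 ± 422 in RS_DMSO cells (RR_Rap minus RS_Rap -3.14 ± 0.09, adjusted p = 4.95e-14). Of 9 immediate early targets, 1 was higher and 6 lower in RR_Rap minus RS_DMSO, and 2 higher and 4 lower in RR_Rap minus RS_Rap. In RS_Rap minus RS_DMSO 3 were lower. Over all tested probe sets 43.7%, 47.7% and 28.0% were called in these comparisons in either direction. Junb averaged 226 ± 17.7 in RR_Rap, 796 ± 20.4 in RS_Rap and 777 ± 72.7 in RS_DMSO cells. Fos, Egr1 and Ier2 were lower in both rapamycin groups than in RS_DMSO. Against RS_Rap, Ier2 was higher in RR_Rap (0.46 ± 0.12, adjusted p = 0.00508). Nr4a1, chosen after its values were seen, was higher in RR_Rap than in RS_DMSO (1.29 ± 0.25) and than in RS_Rap (1.46 ± 0.25).

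**Figure D4:**
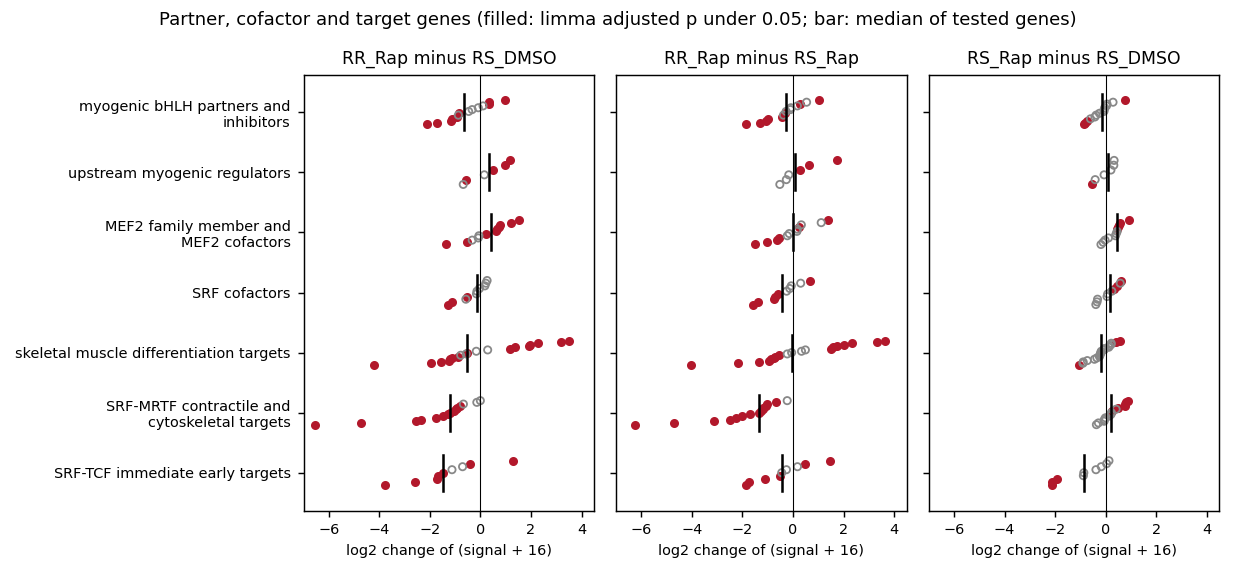
log2 change of (signal + 16) for the tested genes of 7 lists of partners, cofactors and targets, 1 point per gene, in RR_Rap minus RS_DMSO, RR_Rap minus RS_Rap and RS_Rap minus RS_DMSO. Filled points had a limma adjusted p under 0.05 and black bars are medians. The contractile SRF targets lie to the left in both RR_Rap panels, with medians of -1.19 and -1.33, and the skeletal muscle genes spread to both sides.

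Markers of other cell types were read beside these lists. Of 6 fibroblast genes 5 were tested, and 4 were lower in RR_Rap than in RS_DMSO and than in RS_Rap. Over all tested probe sets the shares lower were 22.0% and 25.8%. Among the 4 were Col1a1 (-1.52 ± 0.13 against RS_DMSO) and Dcn (-2.89 ± 0.19). The summed signal of the 6 fibroblast genes was 8964 to 10430 in RR_Rap, 29326 to 35062 in RS_Rap and 20913 to 25966 in RS_DMSO cells. The part of these and the following markers in the muscle and SRF results was not tested. Summed signals of the 6 neuron markers were 190 to 243 in RR_Rap, 264 to 323 in RS_Rap and 271 to 557 in RS_DMSO cells. Those of 7 glial markers were 185 to 327, 339 to 359 and 209 to 444, of 6 leukocyte markers 177 to 266, 236 to 331 and 199 to 567, and of 5 endothelial markers 68.4 to 121, 52.8 to 126 and 67.2 to 213, in the same order of groups. Of these lists 3 neuron, 5 glial, 4 leukocyte and 1 endothelial gene were tested. Called were the tubulin gene Tubb3, at means of 113 in RR_Rap, 174 in RS_Rap and 181 in RS_DMSO cells and lower in RR_Rap than in both sensitive groups, and the myelin gene Mbp, at 6.94, 90.2 and 111 and also lower in RR_Rap than in both. The glutamate transporter gene Slc1a3, at 156, 135 and 67.2, was called higher in both rapamycin groups than in RS_DMSO, and Aif1, at 5.38, 64.2 and 24.3, lower in RR_Rap than in RS_Rap. Aif1 was under the limit in RR_Rap and near it in RS_DMSO. It entered the test only through RS_Rap, where it was high, so its call lends no support. In RR_Rap, RS_Rap and RS_DMSO cells, means above the limit numbered 3, 5 and 4 of 6 neuron and 4, 5 and 5 of 7 glial markers. They numbered 3, 4 and 5 of 6 leukocyte and 1, 2 and 2 of 5 endothelial markers. The leukocyte receptor gene Csf1r, at 146, 107 and 155, was above the limit with no call. Snap25, Olig2, Mog, Itgam, Pecam1 and Vwf were below the limit in all 3 groups, unlike others of their lists. Csf1r and these 6 genes were chosen after their values were seen. Of the skeletal muscle list, 17 of 30 measured genes in RR_Rap, 14 in RS_Rap and 19 in RS_DMSO cells had a mean signal above the limit. The RS_DMSO count includes Myh8 (32.3 ± 30.0) and Mymk (27.8 ± 28.9), which lay below the filter over all 9 arrays. How far the raised low signals of the third RS_DMSO array enter this count was not tested.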

How the data were processed

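Total RNA of 9 samples was labelled with biotin and hybridised to Affymetrix mouse arrays, 1 array a sample. The deposited values are linear intensities; the submitters' processing notes name GCOS 1.4, and how probes were summarised is not given in the sources used here. After trimming, every array had a mean of 250.0, so the authors' scaling was kept. Groups and replicate numbers came from sample titles. Of 45101 probe sets, 64 were controls, 34945 carried 1 symbol, 932 several and 9160 none, and gene IDs of all 9 members matched the RefSeq gene table under the same symbol. Non-control probe sets with a mean log2(signal + 16) above the 40th percentile (27022) entered 1 linear model over 9 arrays (limma 3.58.1, R 4.3.3, eBayes with trend, Benjamini-Hochberg within each comparison, called under 0.05). Changes on this scale are understated for dim probe sets. The fit was tested on simulated data. The number of arrays limits precision, and no scan batch was known.

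Every probe set of a member is reported. From each list, by a gene's brightest probe set, up to 4 called genes with the largest change are named, and up to 3 nearest profiles for each member called on its brightest probe set, leaving out clone and predicted names. Members and lists were chosen with earlier results of these data known. Alternatives changed the pseudocount, the filter, the scaling, the eBayes prior, the summary of probe sets, the arrays in the fit and the replicate block.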

Additional observations from a re-analysis of the deposited data

How the results depend on the processing

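The direction and call of single member probe sets held in 634 comparisons with an alternative, while 12 lost a call, 10 gained one and 16 changed sign, none of the 16 called in either fit. Changes of sign were Myf5 in RS_Rap minus RS_DMSO without an RS_DMSO array (-0.40 to 0.065), Mef2a 1425426_a_at in the same comparison (-0.29 to 0.69) and in RR_Rap minus RS_Rap (-0.17 to 0.77) without 1 array, Mef2d 1421388_at in RS_Rap minus RS_DMSO (-0.24 to 0.024), Mef2d 1437300_at in RR_Rap minus RS_Rap (-0.081 to 0.22), Srf 1418255_s_at in RR_Rap minus RS_Rap (-0.031 to 0.23) and Mef2d 1434487_at in RR_Rap minus RS_DMSO (-0.027 to 0.10). With arrays centred on the 75th percentile, RR_Rap minus RS_Rap turned to 0.0044 for Mef2a 1452347_at and to 0.012 for Mef2d 1421388_at, which quantile normalization put at 0.035. With the mean of probe sets Srf was at -0.079 in RS_Rap minus RS_DMSO and Mef2d at -0.14 in RR_Rap minus RS_DMSO. Centring moved the median change of all probe sets by 0.13 in RR_Rap minus RS_Rap and 0.10 in RR_Rap minus RS_DMSO, and quantile normalization by 0.13 and 0.12. The cause of these changes was not tested.

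With 1 probe set a gene, which tests 5 members, 2, 1 and 2 were called in RS_Rap minus RS_DMSO, RR_Rap minus RS_DMSO and RR_Rap minus RS_Rap, and 4523, 6581 and 7186 of all 12715 tested genes. With the mean of probe sets 0, 1 and 2 of 5 members were called, and 3429, 5385 and 6206 of all 11904 tested genes. Myog, which had to differ, was among the calls of both RR_Rap comparisons under either summary. Fewer features were tested in both. Leaving out 1 array gave 3 to 5, 3 to 5 and 3 to 4 called member probe sets, the 5 of RR_Rap minus RS_DMSO without the third RS_DMSO array. With the replicate block 4, 3 and 3 were called, as without it, and 7294, 11508 and 12677 of all probe sets. Deviations of same-numbered arrays from their group means had correlations between -0.08 and 0.01. With 3 arrays a group, which also carry array-wide differences, this cannot settle whether the numbers pair the samples. Among named partner and target genes other than Tcf4, Tcf12, Ckm, Tnnt3, Tnni2, Ttn and Nr4a1, 1330 comparisons with an alternative kept the call and 42 lost it. Most losses were for Pax3, Eya4, Tbx1, Elk1 and Id2 (RR_Rap minus RS_Rap), and none changed sign. Called genes of the skeletal muscle list numbered 8 and 9 in RR_Rap minus RS_DMSO and RR_Rap minus RS_Rap with the filter at the 60th percentile (2 higher and 6 lower, and 2 higher and 7 lower), against 15 and 15 (7 higher and 8 lower in each). Myog was not tested under that filter. In RS_Rap minus RS_DMSO, called immediate early genes numbered 5 without the first RS_DMSO array, against 3, MEF2 list genes 3 with the mean of probe sets, against 5, and upstream regulators 3 without the third RS_DMSO array, against 1. Upstream regulators called in RR_Rap minus RS_Rap numbered 1 without the second or the third RR_Rap array, against 3.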
